A study of Mus musculus with 4 samples.

Results

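Binding of SCL around the genes of the Notch pathway was examined in FLK1+ mesoderm. SCL, the product of Tal1, is the basic helix-loop-helix factor at the head of the blood programme. The set comprised 10 genes, namely the receptors Notch1, Notch2 and Notch4, the ligands Dll1, Dll4, Jag1 and Jag2, and the target genes Hes1, Hey1 and Hey2. A peak was given to a gene when the closest protein-coding transcription start site (TSS) to the peak's summit was a TSS of that gene. By this rule 28 of the 12885 SCL peaks belonged to the set, and they were spread over 7 of the 10 genes. Notch4, Dll1 and Jag2 had no peak, beside 70.9% of all protein-coding genes. The rule that gave peaks to genes used position and neither height nor sequence, while the genes themselves were chosen with earlier results of these data known.

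The peaks came from wild-type J1 embryonic stem (ES) cells of mixed C57Bl/6 X Sv129 background. The cells were differentiated into embryoid bodies (EBs), the ball-like cultures in which mesoderm forms in vitro, and FLK1+ cells were isolated at day 3.5. Chromatin from 2 independent differentiations was precipitated with an in-house rabbit anti-serum against SCL, and each had an input library with no antibody. The deposited list is a pooled call of the 2 merged SCL libraries over the 2 merged inputs, so it gives no value for either differentiation alone, and the spread between them was not analysed here. FLK1+ mesoderm at this stage holds precursors of blood and endothelium, but the labels do not call it haemogenic endothelium, and a list of binding sites has no expression values with which to check the cell type. The ES cells are a model of the embryo made from a single line.

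Notch receptors are membrane proteins activated by Delta-like and Jagged ligands on neighbouring cells. Once a ligand is bound, the receptor is cleaved, its intracellular part enters the nucleus and joins the DNA-binding protein RBPJ and a Mastermind co-activator, and genes such as Hes1, Hey1 and Hey2 are switched on. The Hes and Hey proteins are themselves helix-loop-helix repressors. In the embryo Notch signalling is known for its part in arterial identity and in the emergence of blood stem cells from the wall of the aorta. SCL is known to bind DNA with an E protein at the E-box CANNTG and to work with GATA factors, LMO2 and LDB1, often where CTG lies a short distance from GATA.

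By the closest-TSS rule, most of the peaks, and the highest ones, were given to the target genes. Hes1, Hey1 and Hey2 held 17 of the 28 peaks, with a median enrichment of 13.7-fold (range 6.48 to 69.3). The ligand genes held 6 peaks with a median of 10.01-fold (7.86 to 23.4), and the receptor genes held 5 with a median of 6.998-fold (4.97 to 12.8). Fold here is the coverage of the merged SCL libraries at the summit over the local background. A threshold of 20-fold was reached by 7 peaks of the target genes, 2 of the ligand genes and 0 of the receptor genes, 9 of 28 in all (32.1%, Wilson 95% interval 17.9 to 50.7%), beside 25.1% of all peaks. A threshold of 40-fold was reached by 6 peaks, all of them given to target genes, beside 10.2% of all peaks. At 10-fold, 15 passed (53.6%, beside 56.6%), and at 50-fold, 4 passed (14.3%, beside 7.26%). Together, the 28 peaks were like the rest of the list, with a median of 11.3-fold (95% interval of the median over peaks, 7.86 to 22.2) beside 11.1-fold (11.05 to 11.4) over all 12885 peaks. The higher folds of the target genes came from distal summits. Among summits in a gene or within 10 kb of it, the highest were those of Dll4 with 23.4-fold and Notch2 with 12.8-fold. The highest of a target gene was then that of Hes1, with 11.9-fold.

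**Figure D1:**
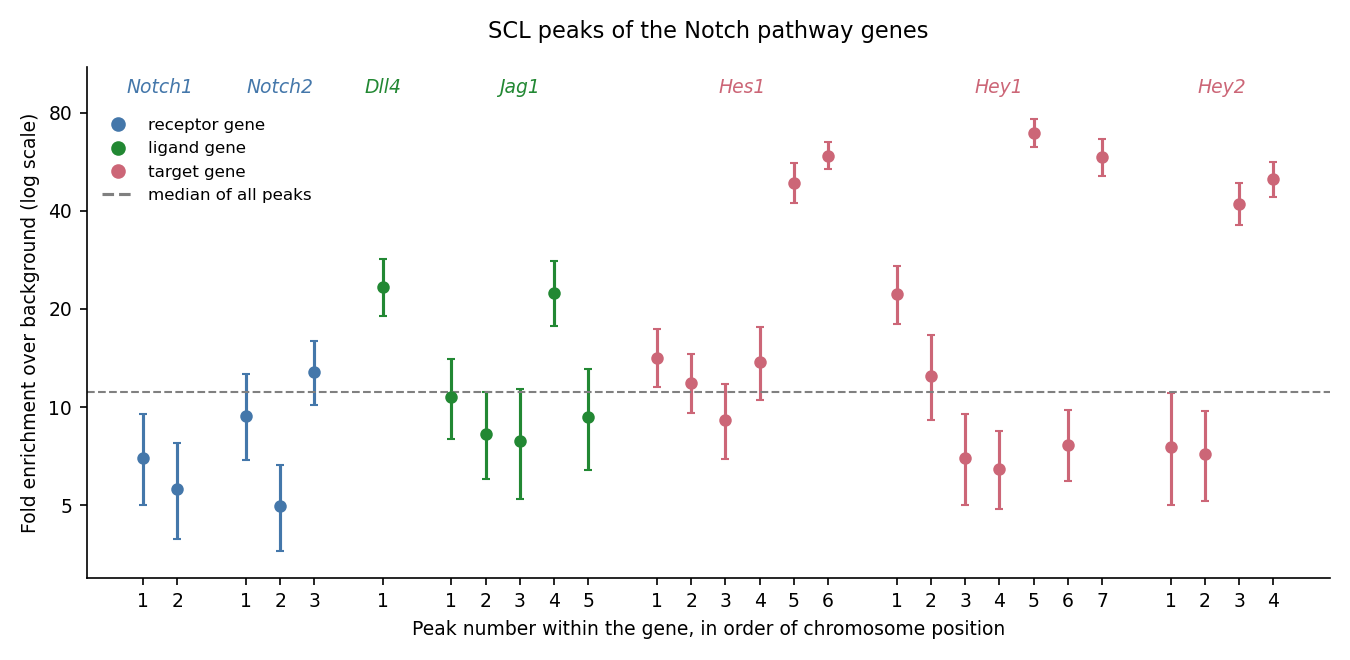
Fold enrichment (log axis) of each of the 28 SCL peaks, numbered along the chromosome within each gene and coloured by the role of the gene. Points are the pooled values, bars the Poisson 95% interval of the SCL coverage with the background held fixed, and the dashed line is the median of all 12885 peaks (11.1-fold). The bars cover the counting error of the SCL fragments only. The 6 peaks above 40-fold all belong to Hes1, Hey1 and Hey2.

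The DNA under the strongest peak of 6 of the 7 genes with peaks, and under both peaks within 1 kb of a TSS, is shown so that the letters behind the motif counts can be read. Each run is the plus strand of mm9, 5′ to 3′, and spans 50 bp on either side of the summit. Capitals mark the GATA hexamers (AGATAA or AGATAG, and likewise TGATAA or TGATAG, with their reverse complements), the E-boxes (CANNTG) and the CTG and GATA of a composite, in which 7 to 9 bp separate CTG from GATA. In the run for the Hes1 start site, 28 bases that fall in an exon are left out.
Notch1 peak 1 (chr2:26352162-26352262): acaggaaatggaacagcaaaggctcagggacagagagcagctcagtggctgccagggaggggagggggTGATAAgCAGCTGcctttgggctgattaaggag
Notch2 peak 3 (chr3:97850339-97850439): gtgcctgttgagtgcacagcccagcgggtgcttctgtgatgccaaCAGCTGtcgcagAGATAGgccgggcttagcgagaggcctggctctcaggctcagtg
Jag1 peak 4 (chr2:137340018-137340118): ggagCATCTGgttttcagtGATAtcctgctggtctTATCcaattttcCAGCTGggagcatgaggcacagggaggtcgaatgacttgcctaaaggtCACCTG
Hes1 peak 2 (chr16:30065353-30065425): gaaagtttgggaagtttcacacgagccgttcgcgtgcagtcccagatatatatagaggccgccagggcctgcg
Hes1 peak 6 (chr16:30160638-30160738): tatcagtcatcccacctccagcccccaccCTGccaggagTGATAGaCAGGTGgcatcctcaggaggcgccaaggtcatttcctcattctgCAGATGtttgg
Hey1 peak 5 (chr3:8716644-8716744): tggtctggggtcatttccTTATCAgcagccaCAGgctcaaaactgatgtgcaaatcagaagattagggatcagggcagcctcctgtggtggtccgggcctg
Hey2 peak 2 (chr10:30561848-30561948): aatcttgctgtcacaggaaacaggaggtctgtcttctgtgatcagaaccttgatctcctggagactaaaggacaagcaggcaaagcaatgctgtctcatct
Hey2 peak 4 (chr10:30788669-30788769): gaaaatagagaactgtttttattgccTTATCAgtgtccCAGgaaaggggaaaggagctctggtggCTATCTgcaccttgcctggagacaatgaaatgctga
The runs differ in how these letters lie. Under Hes1 peak 6 a CTG stands 8 bp before the GATA of a TGATAG hexamer, and an E-box follows the hexamer after a single base, at the summit. The same spacing of 8 bp was found on the opposite strand under Hey1 peak 5, and a spacing of 7 bp was found under Hey2 peak 4. Jag1 peak 4 carried 2 composites, with spacings of 9 and 8 bp, although neither of its GATA letters lay in one of the 4 hexamers. The runs for the peaks at the Hes1 and Hey2 start sites have no capitals.

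Notch1, the receptor needed for blood stem cell emergence in the embryo, had 2 peaks, both low. At least 2 were given to 12.7% of all protein-coding genes and to 10.7% of those whose stretch, the length of chromosome with the gene's own TSS as the closest coding TSS, measured 50 to 100 kb (73.8 kb for Notch1). Notch1 peak 1 (chr2:26352080-26352542) lay in an intron of Notch1, 7.13 kb downstream of the TSS, with 39 fragments over a background of 4.72 and an enrichment of 6.998-fold (Poisson 95% interval 5.03 to 9.50, as for each peak hereafter). The intervals of fold hold the background fixed and so leave out the counting error of the input. Notch1 peak 2 (chr2:26381247-26381517) was intergenic, 9.20 kb upstream, with 5.61-fold (3.93 to 7.77). Both stood in the lower part of the list, at ranks 10953 and 12416 of 12885 by fold. Of the genes with any peak, 90.0% had a strongest peak at least as high as that of Notch1. An E-box lay under each summit. Only peak 1 also had a GATA hexamer, TGATAA, which a single base separates from the E-box CAGCTG. Peak 2 had the RBPJ core TGGGAA in place of a GATA hexamer.

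Notch2, the receptor that shares much of the structure of Notch1, had 3 peaks. At least 3 were given to 6.53% of all protein-coding genes and to 15.1% of those whose stretch measured 100 to 300 kb (130 kb for Notch2). The strongest, Notch2 peak 3 (chr3:97850239-97850725), lay in an intron of the gene, 32.9 kb downstream of the TSS, with 79 fragments and 12.8-fold (10.2 to 15.9), and it carried a composite with a spacing of 7 bp. Notch2 peak 1 (chr3:97772142-97772821) and peak 2 (chr3:97776257-97776618) were intergenic, 44.96 and 41.03 kb upstream. Their summits lay 3.93 kb apart. Peak 1 reached 9.43-fold (6.88 to 12.6) and peak 2 reached 4.97-fold (3.63 to 6.65), the lowest value of the 28. Both had a height of 43 fragments, so their folds differ through the local background of 3.67 and 7.86 fragments. No interval of a Notch1 or Notch2 peak reached 20-fold.

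Notch4, the receptor found mainly in endothelium, had no SCL peak. The closest summit lay 330 kb from its TSS and was given to Zbtb12. Notch4 sits among closely spaced genes, and its stretch measured only 21.1 kb. Of the protein-coding genes with a stretch of 10 to 50 kb, 84.8% had no peak.

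Among the ligands, Dll4, the Delta-like ligand of arterial endothelium, had a single strong peak close to its start. Dll4 peak 1 lay 4.94 kb upstream of the TSS, with 96 fragments over a background of 3.14 and an enrichment of 23.4-fold (19.0 to 28.5), rank 2674. It was the only peak above 20-fold within 10 kb of a TSS of the set. The next coding gene, Chac1, was 30.4 kb away. When non-coding TSSs were allowed to compete, the peak went to Gm14207 at 4702 bp, against 4943 bp to Dll4, and Dll4 was left with 0 peaks. The stretch around Dll4 measured 31.2 kb, and 15.2% of genes with a stretch of 10 to 50 kb had at least 1 peak.

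Jag1, the Jagged ligand expressed in endothelium and smooth muscle, had 5 peaks spread over a wide region. Jag1 peak 1 (chr2:136922688-136923079) lay in an intron of the gene, 19.4 kb downstream of the TSS, with 10.7-fold (7.98 to 14.1). The other 4 were intergenic and upstream, with Jag1 peak 2 (chr2:137111882-137112109) at 170 kb, peak 3 (chr2:137245513-137245839) at 303 kb, peak 4 (chr2:137339904-137340194) at 398 kb and peak 5 (chr2:137386050-137386546) at 444 kb. Peak 4 was the strongest, with 76 fragments and 22.4-fold (17.7 to 28.0), and its interval did not overlap those of the other 4, which ran from 5.24 to 14.1. Peaks 2, 3 and 5 reached 8.28-fold, 7.86-fold and 9.32-fold. The next closest coding gene to these 4 peaks was 2210009G21Rik, on the far side of Jag1 and between 394 and 668 kb away. Jag1 drew from the largest stretch of the 10 genes, 682 kb, so that its 5 peaks came to 0.733 per 100 kb, beside 0.485 over all chromosomes. At least 5 peaks were given to 2.07% of all protein-coding genes and to 13.8% of those with stretches of 500 to 1000 kb. Assigning a peak to a gene at such distances is a matter of the rule, and when non-coding TSSs were allowed to compete only peak 1 was left to Jag1.

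Dll1 and Jag2 had no peak. Dll1, the Delta-like ligand of the presomitic mesoderm, had a stretch of 172 kb. Of the genes with stretches of 100 to 300 kb, 48.7% had no peak. The closest summit, 54.7 kb from the Dll1 TSS, was given to Fam120b and reached 8.72-fold. The stretch around Jag2 measured 24.3 kb, and the closest summit lay 20.8 kb from its TSS, was given to Nudt14 and reached 8.40-fold.

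**Figure D2:**
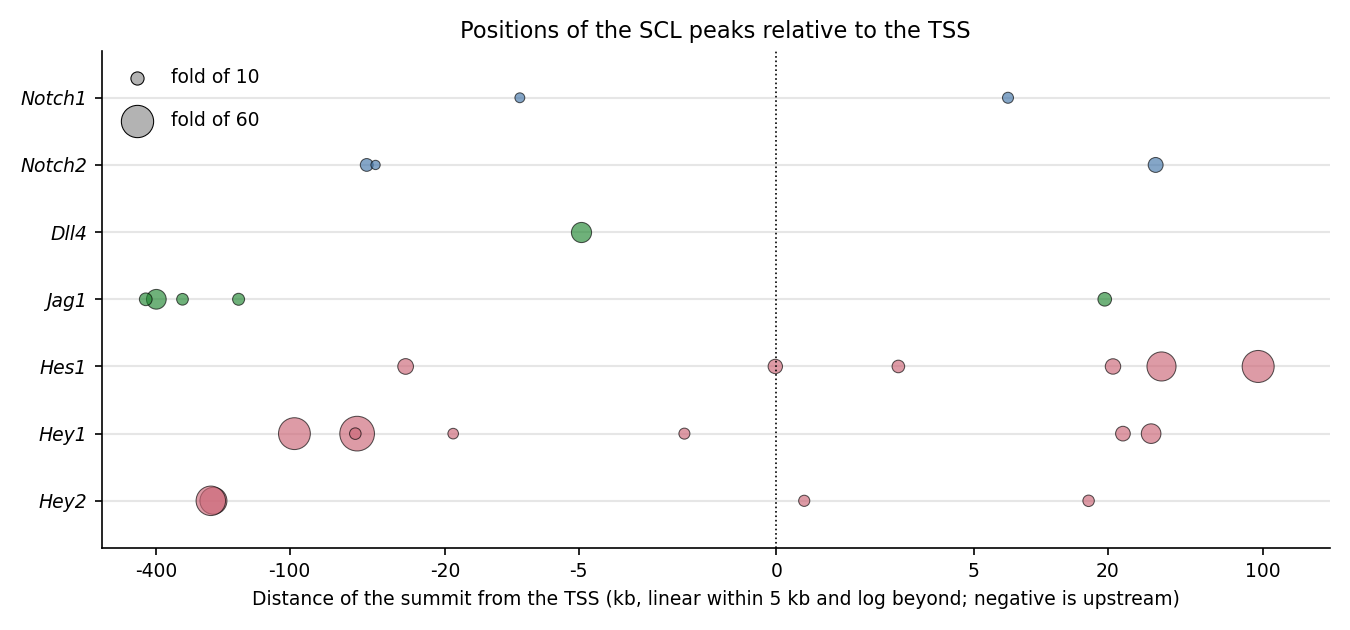
Position of each SCL summit relative to the TSS of its gene, in kb along the direction of transcription, with an axis that is linear within 5 kb and logarithmic beyond. The area of a circle is proportional to the fold and colours give the role as in the plot of fold by peak. The circles above 40-fold lie between 35.0 and 226 kb from the TSS, and Hes1 and Hey2 have the only circles within 1 kb.

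Hes1, the Notch target that represses differentiation genes in many progenitors, had 6 peaks, a number reached by 1.23% of all protein-coding genes and by 2.15% of those with stretches of 100 to 300 kb (that of Hes1 measured 153 kb). Hes1 peak 2 (chr16:30065188-30065534) covered the start of the gene, its summit 23 bp upstream of a coding TSS and within an intron of a non-coding Hes1 transcript, with 92 fragments and 11.9-fold (9.62 to 14.6). It had neither a GATA hexamer nor an E-box within 50 bp, but held the RBPJ core TGGGAA 43 to 38 bp to the left of the summit. The 2 strongest peaks were intergenic and downstream of the gene. Hes1 peak 5 (chr16:30100130-30100588), 35.0 kb from the TSS, had 201 fragments and 48.7-fold (42.3 to 55.9). Hes1 peak 6 (chr16:30160498-30161043), 95.3 kb from the TSS, had 429 fragments, the greatest height of the 28, and 59.0-fold (53.6 to 64.8), rank 683. Cpn2 was the next coding gene to peak 6, at 107 kb, only slightly farther than Hes1.

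The other Hes1 peaks were of medium height. Hes1 peak 1 (chr16:30035225-30035553) lay 30.04 kb upstream with 14.2-fold (11.5 to 17.3), and carried a composite whose CTG, on the minus strand, overlaps the E-box CAGATG. Hes1 peak 3 (chr16:30068103-30068831) lay 3.09 kb downstream of the TSS, just past the end of the gene, with 9.13-fold (6.94 to 11.8). Hes1 peak 4 (chr16:30086437-30086727) lay 21.2 kb downstream with 13.7-fold (10.5 to 17.6), and had the TGGGAA core directly before a GATA hexamer. The peak at the start site thus fell among the lower 4 of the gene, and its interval did not overlap those of the 2 distal peaks.

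Hey1, the target that together with Hey2 is required for vascular development, had 7 peaks by the closest-TSS rule, more than the other 9 genes. Counting only summits in a gene or within 10 kb of it left Hey1 with 1, below Hes1, Hey2 and Notch1 with 2 each. At least 7 peaks were given to 0.782% of protein-coding genes and to 1.26% of those with stretches of 100 to 300 kb, where Hey1 falls with 207 kb. Hey1 peak 5 (chr3:8716332-8716868) was the strongest of all 28, with 395 fragments over a background of 4.72 and 69.3-fold (62.6 to 76.4), rank 508. It lay 49.7 kb upstream. Hey1 peak 7 (chr3:8761721-8762407), 95.1 kb upstream, had 239 fragments and 58.4-fold (51.2 to 66.2), and Mrps28 was the next coding gene at 162 kb. Both carried a GATA hexamer that overlaps a composite with a spacing of 8 bp. Hey1 peak 6 (chr3:8717164-8717875) stood 939 bp from peak 5 and reached only 7.68-fold (5.93 to 9.79), 50.6 kb from Hey1 and 206 kb from Mrps28. Joining peaks with gaps under 500 bp merged peaks 5 and 6 and left 27 peaks in the set, so that Hey1 no longer exceeded Hes1.

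On the other side of the gene, Hey1 peak 1 (chr3:8635444-8635891) lay 31.4 kb downstream with 96 fragments and 22.2-fold (18.0 to 27.0), and Hey1 peak 2 (chr3:8643289-8643716) lay 23.5 kb downstream with 12.4-fold (9.11 to 16.6). None of the motifs searched was found within 50 bp of the summit of peak 2. Hey1 peak 3 (chr3:8669234-8669700) was the closest to the TSS, 2.32 kb upstream, and reached 6.998-fold (5.03 to 9.50). Hey1 peak 4 (chr3:8685146-8685529), 18.4 kb upstream, reached 6.48-fold (4.88 to 8.44) and had the E-box CACGTG together with 2 RBPJ cores. No peak lay within 1 kb of the Hey1 TSS, and the folds at 2.32 and 18.4 kb were below those at 49.7 and 95.1 kb with intervals that did not overlap, whereas the interval of peak 6, at 50.6 kb, overlapped both of the nearer ones.

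Hey2, the target found in arterial endothelium and ventricular muscle, had 4 peaks, a number reached by 3.58% of all protein-coding genes and by 7.96% of those with stretches of 100 to 300 kb. The stretch around Hey2 measured 255 kb. Here the strong sites formed a pair far upstream. Hey2 peak 3 (chr10:30782508-30783065) lay 220 kb from the TSS with 183 fragments and 42.1-fold (36.2 to 48.6), and Hey2 peak 4 (chr10:30788384-30789133) lay 226 kb from it with 262 fragments and 50.05-fold (44.2 to 56.5). Their summits were 6.01 kb apart and their intervals overlapped. Hddc2, the next coding gene, was 250 and 244 kb away, so the pair lay nearly midway between the genes. The 2 peaks near the gene were low. Hey2 peak 2 (chr10:30561778-30562032) lay 709 bp downstream of the TSS in an intron of Hey2 with 40 fragments and 7.17-fold (5.17 to 9.70), and Hey2 peak 1 (chr10:30546032-30546291) lay 16.4 kb downstream with 25 fragments, the fewest of the 28, and 7.57-fold (5.003 to 11.04).

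Of the 9 peaks at or above 20-fold, all 9 were intergenic (beside 53.5% of the list's peaks at or above 20-fold), 5 lay over 50 kb from the TSS (beside 36.4%), 1 lay within 10 kb (beside 27.1%) and 0 lay within 1 kb (beside 5.83%). By distance, the median was 7.17-fold for the 7 peaks within 10 kb, 12.6-fold for the 12 peaks at 10 to 50 kb and 22.4-fold for the 9 peaks over 50 kb. Over the whole list the same classes had medians of 10.8-fold, 11.2-fold and 11.4-fold. The medians of the set rest on few peaks, and their intervals were wide (5.61 to 23.4 within 10 kb, 7.57 to 22.2 at 10 to 50 kb and 7.86 to 58.4 over 50 kb). The distances themselves were like those of the list, with 2 of 28 peaks within 1 kb of a TSS (7.14% beside 6.52% of all peaks), 7 within 10 kb (25% beside 27.8%) 9 over 50 kb (32.1% beside 35.5%) and 6 over 100 kb (21.4% beside 19.8%). Of the 28 peaks, 23 were intergenic (82.1%, interval 64.4 to 92.1%, beside 54.1% of all peaks) and 5 intronic (17.9%, beside 42.4%). These shares take no account of gene length. The target genes, which held 17 of the 28 peaks, fill a small part of their stretches. Hes1 spans chr16:30064470-30067882 in 153 kb, Hey1 chr3:8663362-8667039 in 207 kb and Hey2 chr10:30552165-30562607 in 255 kb. Whether the intergenic share follows from gene length was not tested.

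By number of peaks, the set stood above the list. At least 1 peak was given to 7 of the 10 genes, beside 29.1% of all 22372 protein-coding genes, and at least 4 to Jag1, Hes1, Hey1 and Hey2, beside 3.58%. A gene far from its neighbours can gather more peaks under a closest-TSS rule, and the median stretch of a protein-coding gene was 46.5 kb, below that of Notch1 (73.8 kb), Notch2 (130 kb) and each gene with at least 4 peaks. Notch4 and Jag2 had stretches of 21.1 and 24.3 kb and no peak. The other way round, Dll1 had no peak in 172 kb and Dll4 had 1 peak in 31.2 kb. Per length, the 10 genes held 28 peaks in 1749 kb, or 1.60 per 100 kb, beside 0.485 per 100 kb over all chromosomes, whose length includes regions that cannot be mapped. Hes1 had the highest value with 3.93 per 100 kb, followed by Hey1 with 3.38, Dll4 with 3.20, Notch1 with 2.71, Notch2 with 2.31 and Hey2 with 1.57. The strongest peak of Hey1 was matched or exceeded in 7.17% of the genes with a peak, that of Hes1 in 9.47% and that of Hey2 in 12.8%. For Dll4 and Jag1 the shares were 31.5% and 33.0%, and for Notch2 55.3%. These shares were not matched for the number of peaks, and a gene with more peaks has more that can be high. Of the 6502 genes with a peak, 2850 had at least 2.

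**Figure D3:**
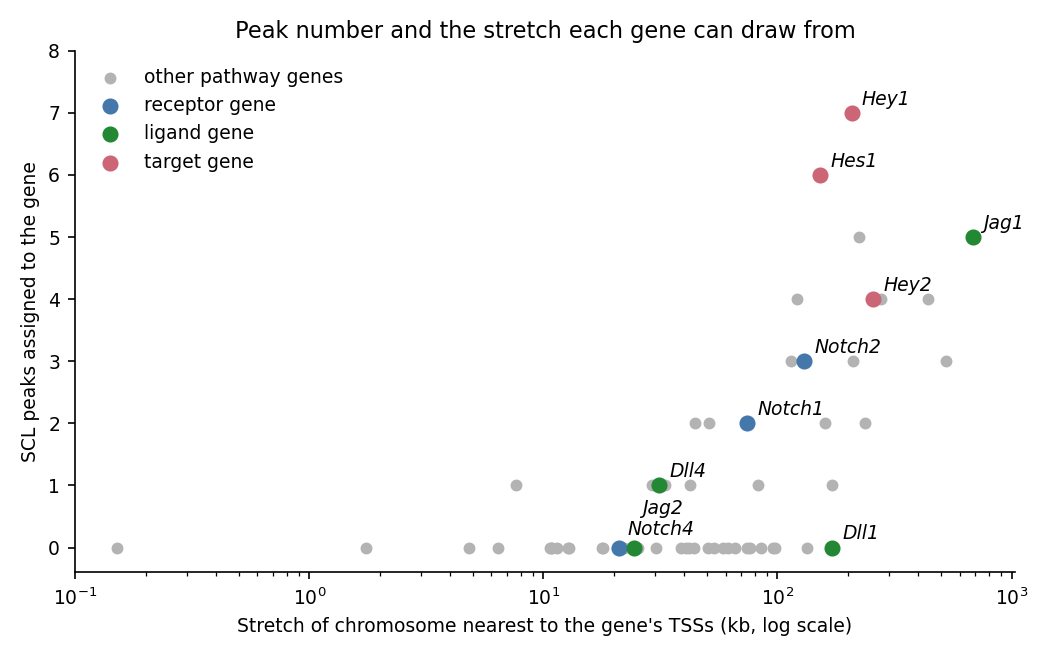
Number of SCL peaks given to each gene against the length of chromosome whose closest coding TSS belongs to that gene (kb, log axis), for the 10 Notch genes (coloured by role, named) and the 51 other pathway genes (grey). Hey1 and Hes1, with 7 and 6 peaks over 207 and 153 kb, stand highest, and Jag1 has 5 peaks over 682 kb.

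The motifs under the 28 summits occurred about as often as under all SCL peaks. A GATA hexamer lay within 50 bp of 20 summits (71.4%, interval 52.9 to 84.7%), beside 73.2% of all peaks and 17.8% of windows placed 1 kb to either side of all summits. An E-box lay under 17 (60.7%, interval 42.4 to 76.4%), beside 52.6% of all peaks and 42.4% of flanking windows. The composite lay under 8 (28.6%), beside 32.9% and 3.07%. Hes1 peak 2, Hey1 peak 2 and Hey2 peak 2 had neither a GATA hexamer nor an E-box, 3 of the 28 (10.7%) beside 12.1% of the list. Each count is of letters on either strand, and the composite may overlap a GATA hexamer or an E-box.

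Among E-boxes, CAGCTG, the palindrome bound by many helix-loop-helix factors, was found under 8 summits (28.6%, interval 15.3 to 47.1%), beside 14.1% of all peaks and 4.70% of flanking windows. CAGATG, the form known for SCL with an E protein, was found under 7 (25%, interval 12.7 to 43.4%), beside 19.6% and 7.92%. The RBPJ core TGGGAA was found under 4 (14.3%, interval 5.70 to 31.5%), beside 10.8% of all peaks and 9.55% of flanking windows. These 4 were Notch1 peak 2, Hes1 peaks 2 and 4 and Hey1 peak 4. The ETS core AGGAA was found under 13 (46.4%), beside 51.9% and 33.1%. Each of these intervals includes the share over all peaks except that for CAGCTG, whose lower bound of 15.3% lies above 14.1%. CAGCTG was singled out after its share was seen, among 7 motifs counted.

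No test was made on these peaks, but those with the composite had the higher median. The 8 peaks that held it had a median of 36.7-fold (interval 12.8 to 69.3) and the 20 that did not had a median of 8.71-fold (7.17 to 11.9), beside 13.3-fold and 10.3-fold over the whole list. Of the 9 peaks at or above 20-fold, 6 held the composite and 8 a GATA hexamer, beside 43.6% and 83.2% of the list's peaks in that class. Of the 19 below 20-fold, 2 held the composite and 12 a GATA hexamer, beside 29.2% and 69.8%. The GATA hexamer alone separated the set less, with medians of 11.8-fold with it and 9.79-fold without (12.1-fold and 9.17-fold over the list). For the E-box the order of the medians was the other way round, 10.7-fold with it and 11.9-fold without (11.4-fold and 10.9-fold over the list), with wide intervals (6.998 to 23.4 and 7.86 to 50.05). Hes1 peak 5 and Hey2 peak 3 exceeded 40-fold without the composite, each with a GATA hexamer and an E-box within 25 bp of the summit.

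**Figure D4:**
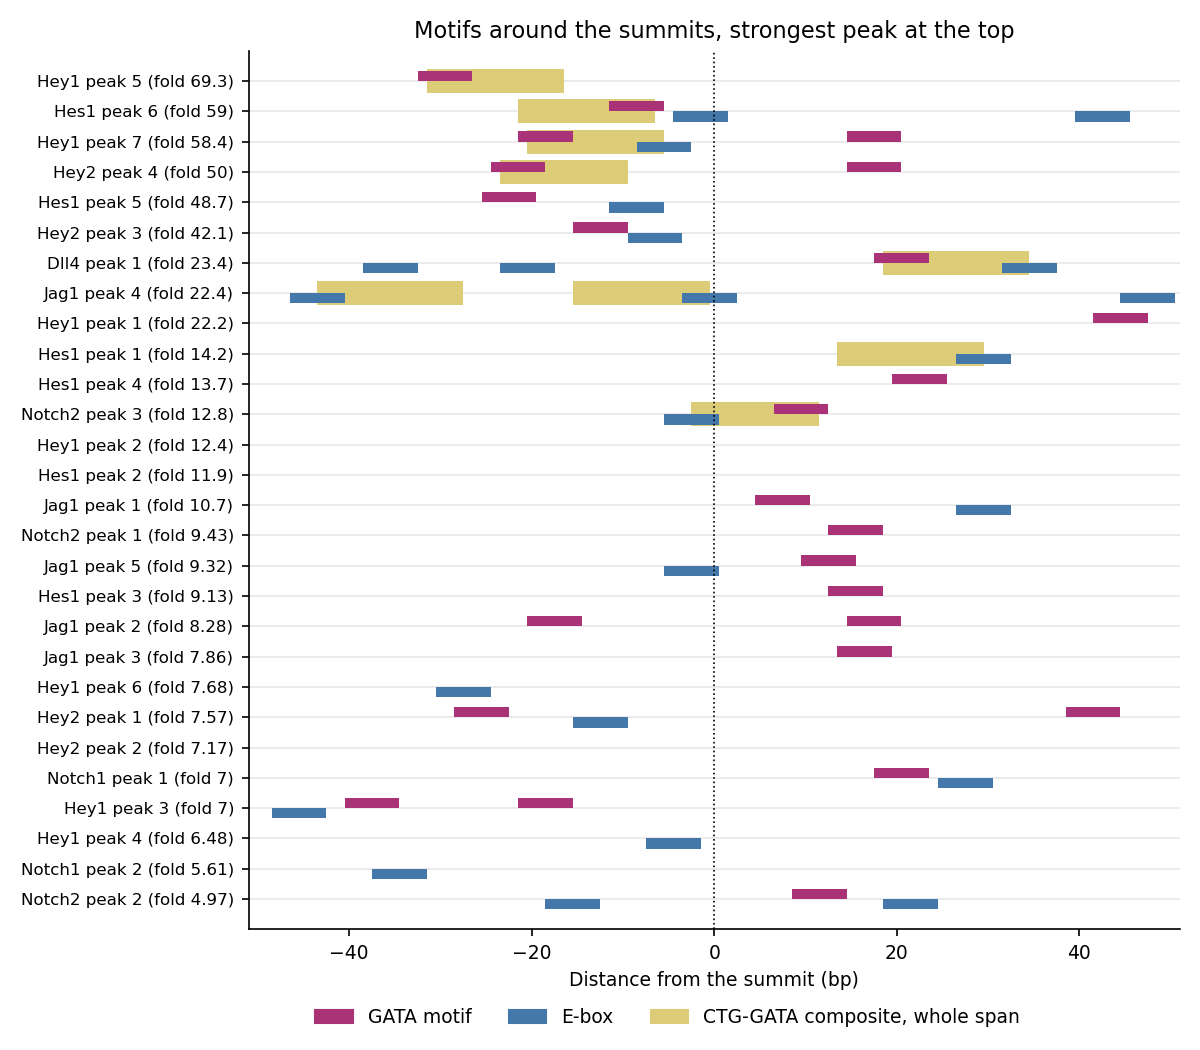
Matches to the GATA hexamers, the E-box and the CTG-GATA composite on either strand within 50 bp of each of the 28 summits, ordered by fold with the strongest peak at the top. The x axis is the distance from the summit in bp on the plus strand. Composites crowd at the top, where 6 of the first 9 peaks hold them, and Hey1 peak 2, Hes1 peak 2 and Hey2 peak 2 hold none of the 3.

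Of 51 further genes of the pathway (other receptors and ligands, nuclear partners, enzymes that modify or cleave the receptor, and other targets), 17 had a peak and 34 had none, where 29.1% of all protein-coding genes had at least 1. Their 40 peaks had a median of 10.1-fold (interval 8.45 to 18.0, range 4.29 to 44.8), and 11 reached 20-fold, where 25.1% of all peaks did. Dlk1, a Delta-like protein without the domain that activates Notch, had 4 peaks with up to 34.7-fold (29.5 to 40.7) at 41.0 kb. Maml3, a Mastermind co-activator, had 4, all within its introns, with up to 31.0-fold (25.8 to 37.0). Neurl1b, a ubiquitin ligase of the Neuralized family, had 4 with up to 18.0-fold (14.1 to 22.7) at 1.85 kb.

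Kat2b, an acetyltransferase, had 3 intronic peaks with up to 39.99-fold (34.3 to 46.4) at 6.39 kb from the TSS. Fbxw7, the ligase that marks the Notch intracellular domain for destruction, had 3 with up to 28.4-fold (24.5 to 32.7). That strongest peak lay 43.1 kb from the Fbxw7 TSS, in an intron of Arfip1. The others lay at 5.67 kb, in introns of both genes, and at 268 kb, in an intron of Arfip1. The strongest peak of the further genes was in an intron of Dtx1, a Deltex protein (chr5:121136499-121137501), with 211 fragments and 44.8-fold (39.0 to 51.2). Rbpj itself had 2 low peaks of 8.15-fold and 6.52-fold. Notch3, Dll3, Maml1, Heyl and the targets Hes2, Hes3, Hes5, Hes6 and Hes7 had none by this rule. When summits in a gene or within 10 kb of it were counted instead, Hes5 and Maml1 had 1 each, and the summit closest to the Hes5 TSS, at 4.15 kb, reached 8.93-fold and had been given to Pank4.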

How the data were processed

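SCL ChIP-seq was performed on FLK1+ mesoderm from day 3.5 EBs, with 2 SCL libraries and 2 inputs. Per the submitters' processing notes and the study's methods, the authors aligned reads to mm9 with Bowtie 1.1.2, removed duplicates, called peaks with MACS2 2.0.10 on merged SCL over merged input libraries and set the deposited list by irreproducible discovery rate. Its 12885 peaks outnumber the SCL-bound loci that the paper reports for these cells. Every share over all peaks given here is over the deposited list. Other columns deposited are the summit offset, the fold enrichment (a ratio) at the summit, the −log10 p and −log10 q value of each peak and a score, which the deposited list derives from the p-value and which was not used. No library total is in the list.

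Fragments at the summit and the local background were solved from the deposited fold and −log10 p (fold as fragments plus 1 over background plus 1), to within 0.001 for 99.9% of peaks. The Poisson 95% intervals of fold, and the order-statistic intervals of medians and Wilson intervals of shares, cover counting error or the spread among peaks only, not that between differentiations. Those of fold come from the SCL fragments with the background held fixed. They leave out the counting error of the input and are too narrow by that amount, also where intervals are said not to overlap. Summits were given to the closest of 45974 TSSs of coding transcripts in 22372 genes (GENCODE vM1, mm9), and motifs were counted on both strands in 101 bp of NCBIM37. Python 3.11.15, numpy 2.4.6, pandas 2.3.3, scipy 1.17.1 and matplotlib 3.10.9 were used, and the code was tested on simulated data.

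No test was run, since the list is a single pooled call and neighbouring peaks share their source. The 10 genes, the list of 51 further genes and the measures were chosen with earlier results of these data known, and the length of chromosome around each gene was added after the peaks had been assigned. All 10 genes and every peak of each were to be named (1 sequence and 1 further gene are not reported here), with the 6 further genes with the most peaks and the 3 with the highest fold. Rbpj, Notch3, Dll3, Maml1 and the Hes and Hey genes without a peak were named after their values were seen.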

Additional observations from a re-analysis of the deposited data

How the results depend on the processing

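The values with other settings are given without a test, and the cause of a change was not tested unless the setting itself makes it. Of 74 alternative values of the summaries, 59 stayed within their limits (1.5 times a count, or the interval of a share or median) and 15 did not. Keeping only peaks of at least 10-fold left 15 peaks, a median of 22.4-fold, 60% at or above 20-fold and a composite under 53.3%. A cut-off of 50 on −log10 q left 12 peaks, a median of 32.7-fold, 75% at or above 20-fold and a composite under 66.7%. Both settings select on height. Counting only summits in a gene or within 10 kb of it left 10 peaks, of which 10% reached 20-fold, and Hes1, Hey1, Hey2, Notch2 and Jag1 then had 2, 1, 2, 1 and 1. The peak that reached 20-fold was that of Dll4, and no peak of a target gene did so. With thresholds of 10-fold and 50-fold in place of 20-fold, 53.6% and 14.3% of the 28 peaks passed. Centring the motif window on the middle of the peak lowered the GATA share to 42.9% and the composite to 7.14%, and a window of 25 bp on each side lowered the E-box share to 39.3%. When TSSs of lincRNAs and processed transcripts competed, 20 of the 28 peaks stayed with their gene. The peak of Dll4 then went to Gm14207 (4702 bp away), Hes1 peak 6 to Gm17516, Hes1 peak 1 to 4632428C04Rik, Notch2 peak 1 to Gm5544 and 4 of the 5 Jag1 peaks to Gm14055 and Gm14064. An alternative chosen after seeing the data, the TSSs of all transcripts of protein-coding genes, gave the same 28 peaks. No paired analysis was possible because fold and p come from merged libraries alone, and leaving out each library was not run for the same reason. Depth limits the weak peaks, since 25 fragments leave Hey2 peak 1 between 5.003 and 11.04-fold.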
